A study of Mus musculus with 12 samples.

Results

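Foxp3, Il2ra, Ikzf2, Il2rb, Nt5e, Izumo1r and Lrrc32 are 7 genes used to recognise regulatory T cells, and they were chosen here by name. All 7 were among the 16094 named genes of the expression table. They were followed in white blood cells of the spleen, enriched by their surface protein CD45, from 4 male mice. Of these, 2 were SLE.yaa mice (strain B6.Sle1yaa), whose genome holds the lupus susceptibility interval Sle1 and Yaa, a piece of the X chromosome moved onto the Y chromosome. The other 2 were WT mice (strain C57BL/6), which have neither. The deposited age was 14.9 in both SLE.yaa mice and 14.4 in both WT mice, with no unit stated, so age differed with the group. The labels give the groups under a tag that mentions chimeras, and the sources used here do not say whether these mice were chimeras. The strain difference covers a whole genomic interval and the Yaa translocation, so no single allele was tested. Cell types are those the authors annotated, and the comparisons ask in which T, NK and B cells the 7 genes differed between the strains, with the CD4 T cells also split by Foxp3.

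Regulatory T cells are CD4 T cells that restrain other lymphocytes, and in the mouse their identity depends on the transcription factor Foxp3. Ikzf2 encodes Helios, an Ikaros-family factor found in most regulatory T cells of thymic origin and also in activated T cells. Il2ra (CD25) and Il2rb (CD122) encode chains of the interleukin-2 receptor. Il2rb also serves the interleukin-15 receptor of NK and memory CD8 T cells. Nt5e (CD73) makes adenosine from AMP at the cell surface, Izumo1r (folate receptor 4) marks regulatory and anergic CD4 T cells, and Lrrc32 (GARP) holds latent TGF-beta at the surface of activated regulatory T cells.

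On the build GRCm38.p6, Foxp3 lies at chrX:7579676-7595243 and overlaps Flicr and Ccdc22. Il2ra lies at chr2:11642792-11693194, Ikzf2 at chr1:69531207-69687351 and Il2rb at chr15:78479256-78511621. Nt5e lies at chr9:88327609-88372089, Izumo1r at chr9:14885814-14903951 and Lrrc32 at chr7:98489305-98501831. Promoter windows of 300 bases, 250 before and 50 from the transcription start on, were taken from RefSeq (GRCm38.p6) for 4 of the 7 genes. Ikzf2, Il2rb and Lrrc32 had no window, although Ikzf2 and Il2rb were among the genes with large changes in CD4 T cells below. The STAT motif was of interest because interleukin-2 receptors signal through STAT5. A total of 4 motifs were searched on both strands: the STAT motif TTCNNNGAA, the forkhead motif TGTTTAC, the AP-1 motif TGANTCA and the Runx motif TGTGGTT. These motifs occurred in 8.3%, 3.65%, 7.81% and 5.27% of 32851 mouse promoter windows of the same length, in that order. The only match in the 5 windows of the 4 genes was a STAT motif 139 to 131 bases before the second of 2 annotated Foxp3 starts. The window of the first Foxp3 start, which held no match, is not printed. Capitals mark the first transcribed base and, in Foxp3, also the STAT motif. The windows are chrX:7580233-7580532 (plus strand) for Foxp3, chr2:11642542-11642841 (plus) for Il2ra, chr9:88327359-88327658 (plus) for Nt5e and chr9:14903718-14904017 (minus) for Izumo1r, each printed 5′ to 3′.
Foxp3: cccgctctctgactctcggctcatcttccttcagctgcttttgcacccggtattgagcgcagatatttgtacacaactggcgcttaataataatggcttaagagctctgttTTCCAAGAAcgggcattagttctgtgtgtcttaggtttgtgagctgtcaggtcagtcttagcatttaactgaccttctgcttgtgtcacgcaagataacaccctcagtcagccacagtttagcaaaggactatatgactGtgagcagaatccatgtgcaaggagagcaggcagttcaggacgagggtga
Il2ra: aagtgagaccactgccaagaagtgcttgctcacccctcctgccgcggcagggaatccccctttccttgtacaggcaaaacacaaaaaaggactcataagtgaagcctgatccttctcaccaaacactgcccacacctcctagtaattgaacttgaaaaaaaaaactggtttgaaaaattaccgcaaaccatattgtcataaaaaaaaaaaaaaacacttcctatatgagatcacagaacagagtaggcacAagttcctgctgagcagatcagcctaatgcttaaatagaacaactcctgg
Nt5e: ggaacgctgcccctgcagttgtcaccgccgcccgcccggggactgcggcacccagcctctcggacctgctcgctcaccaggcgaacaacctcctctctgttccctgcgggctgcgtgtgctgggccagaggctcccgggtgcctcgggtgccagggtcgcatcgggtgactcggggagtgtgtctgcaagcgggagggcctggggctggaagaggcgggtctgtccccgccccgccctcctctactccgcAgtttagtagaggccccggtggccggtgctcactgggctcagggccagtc
Izumo1r: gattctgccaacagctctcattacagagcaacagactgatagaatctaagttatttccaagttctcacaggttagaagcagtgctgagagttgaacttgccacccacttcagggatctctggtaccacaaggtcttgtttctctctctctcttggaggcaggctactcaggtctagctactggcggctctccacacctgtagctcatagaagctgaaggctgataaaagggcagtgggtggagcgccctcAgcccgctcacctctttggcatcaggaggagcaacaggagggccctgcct
A match is a run of letters, and no occupancy was measured.

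The table held 4961 and 6130 cells in SLE.yaa 1 and 2, against 5497 and 5697 cells in WT 1 and 2. The median cell had 4695 and 4050 UMIs in SLE.yaa mice, against 3467 and 3670 UMIs in WT mice. Cells annotated CD4 numbered 635 and 550 in SLE.yaa mice, against 797 and 834 in WT mice, with median UMI counts of 4292 and 3660, against 4003 and 4407. Cd3e, a marker of CD4 and CD8 T cells alike, was held by 98.1% and 96.4% of them in SLE.yaa mice, against 93.5% and 93.5% in WT mice. Cd4 itself was held by 74.8% and 78.5% in SLE.yaa mice, against 64.5% and 62.8% in WT mice. Pairs of mice shared 35 to 49 cell barcodes. A level is the mean depth-adjusted value of a gene over the cells of a type in a mouse, scaled to a sum of 1000000 (vpm). The mouse was the replicate (n = 2 a group), and nothing in the labels says more of how the mice were kept or bred. Each limma p-value rests on the spread between these 4 libraries, with each gene's variance drawn towards that of genes of like level. The SE and p-value of a gene therefore do not measure its own spread between mice alone. A log2 change is SLE.yaa over WT with its standard error (SE), from limma on log2 of the TMM-scaled level plus 10 vpm unless stated. The Benjamini-Hochberg adjustment ran over all genes tested and the threshold was 0.05.

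CD4 T cells held most of the Foxp3 and Izumo1r value of these spleens, while Il2rb was highest in NK cells. Of all Foxp3 value, 93.4% and 94.4% lay in CD4 T cells in SLE.yaa mice, against 94.4% and 95.0% in WT mice. Of all Izumo1r value it was 93.4% and 93.8%, against 84.9% and 87.8%. By mean level over the 4 mice, Foxp3 ran from CD4 T cells (106 vpm) to NK cells (5.25 vpm) and CD8 T cells (1.92 vpm), and only the step below CD4 T cells exceeded the spread between mice. Izumo1r ran from CD4 T cells (507 vpm) to CD8 T cells (39.8 vpm) and NK cells (10.5 vpm), with an overlap between CD8 T cells and NK cells. Il2rb ran from NK cells (1057 vpm) to CD8 T cells (320 vpm), CD4 T cells (251 vpm) and neutrophils (3.90 vpm), and CD8 and CD4 T cells overlapped. By strain, Il2rb was higher in CD8 T cells (256 and 306 vpm) than in CD4 T cells (89.0 and 80.2 vpm) in WT mice. In SLE.yaa mice it was higher in CD4 T cells (419 and 416 vpm) than in CD8 T cells (323 and 395 vpm). Ikzf2 ran from CD4 T cells (316 vpm) to CD8 T cells (65.5 vpm) and NK cells (44.6 vpm), and each of these types overlapped the next. Within each strain, however, Ikzf2 in CD4 T cells lay above that in CD8 T cells. Nt5e had 88.7 vpm in CD4 T cells, 34.4 vpm in CD8 T cells and 6.90 vpm in neutrophils, and CD4 and CD8 T cells overlapped. In WT mice Nt5e was higher in CD8 T cells (32.1 and 39.8 vpm) than in CD4 T cells (19.97 and 23.0 vpm). In SLE.yaa mice it was higher in CD4 T cells (159 and 153 vpm) than in CD8 T cells (38.3 and 27.5 vpm). Il2ra had 55.5 vpm in CD4 T cells and 38.3 vpm in early B cells, which overlapped. Lrrc32 had 10.2 vpm in CD4 T cells and 1.35 vpm in NK cells, which overlapped. The means and overlaps of types take both strains together. Types were annotated from these same cells, so the order of types carries no test.

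**Figure D1:**
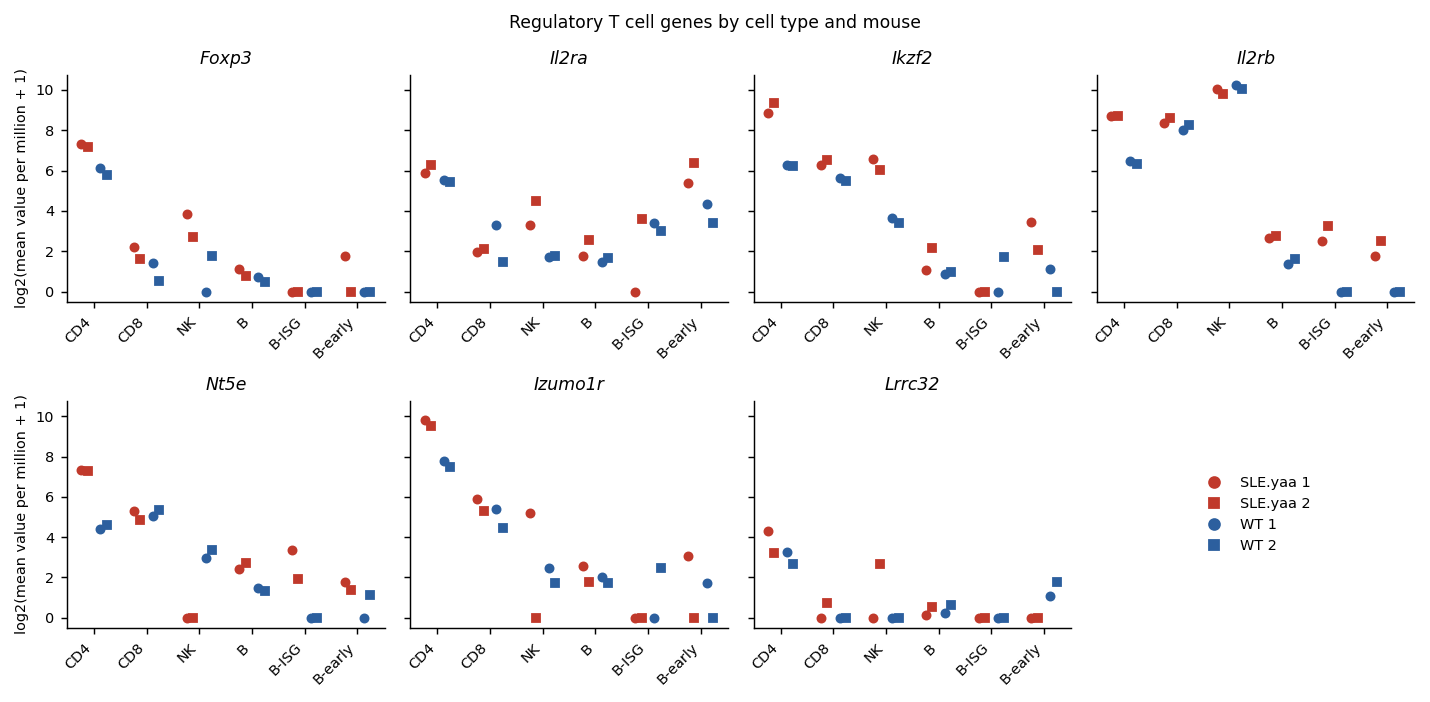
Level of each of the 7 genes in CD4, CD8, NK, B, B-ISG and B-early cells, 1 panel per gene, on a scale of log2(vpm + 1), with 1 point per mouse and SLE.yaa left of WT in each type. In CD4 T cells the SLE.yaa points of Foxp3, Il2ra, Ikzf2, Il2rb, Nt5e and Izumo1r lie above the WT points, while Il2rb in NK cells lies between 892 and 1216 vpm in both groups.

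In CD4 T cells both transcription factors were higher in SLE.yaa mice. Foxp3 had 159 and 140 vpm in SLE.yaa mice, against 68.7 and 54.3 vpm in WT mice and the groups did not overlap. Its log2 change was 1.12 ± 0.14 (limma, adjusted p = 2.31e-05). Ikzf2 had 462 and 654 vpm in SLE.yaa mice, against 76.5 and 73.9 vpm in WT mice. Its log2 change of 2.67 ± 0.16 (limma, adjusted p = 1.45e-08) was the largest of the 6 genes tested in these cells. The Foxp3 locus overlaps 2 genes, and the sources used here do not say whether counting used strand. Of these, Flicr, a noncoding RNA, had 7.59 and 7.85 vpm in SLE.yaa mice, against 1.69 and 3.79 vpm in WT mice, under the 10 vpm a gene needed in at least 2 mice to be tested. Ccdc22 had 17.7 and 9.59 vpm in SLE.yaa mice, against 26.1 and 30.3 vpm in WT mice, a log2 change of −0.74 (limma, adjusted p = 0.00392).

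The chains of the interleukin-2 receptor differed in size of change. Il2rb, the signalling chain, had 419 and 416 vpm in SLE.yaa mice, against 89.0 and 80.2 vpm in WT mice, a log2 change of 2.14 ± 0.12 (limma, adjusted p = 1.12e-08). Il2ra, the chain that raises affinity for interleukin-2, had 57.8 and 76.3 vpm in SLE.yaa mice, against 45.7 and 42.0 vpm in WT mice, and its log2 change was 0.47 ± 0.15 (limma, adjusted p = 0.033). The Il2ra groups did not overlap, but the call was lost without SLE.yaa 2 (adjusted p = 0.206) or WT 2 (adjusted p = 0.194), among cells of 2000 to 5000 UMIs (adjusted p = 0.304) and in 2 more of its 13 alternatives. The summed NK markers moved with Il2rb here, almost wholly through Nkg7. The 5 NK markers summed to 272 and 372 vpm in the CD4 T cells of SLE.yaa mice, against 51.5 and 37.9 vpm in WT mice. Nkg7 made up most of that sum, with 260 and 365 vpm against 45.4 and 28.4 vpm, and Ncr1, the marker that defines NK cells, was at 0 in all 4 mice. Klrb1c, Klre1 and Eomes were at or below 10.5 vpm in every mouse and overlapped between the groups.

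The ectoenzyme and the folate receptor were higher too. Nt5e had 159 and 153 vpm in SLE.yaa mice, against 19.97 and 23.0 vpm in WT mice, a log2 change of 2.36 ± 0.13 (limma, adjusted p = 8.17e-09). Izumo1r had 891 and 738 vpm in SLE.yaa mice, against 220.1 and 179 vpm in WT mice, a log2 change of 1.93 ± 0.14 (limma, adjusted p = 7.20e-08). Neither gene overlapped between the groups. Lrrc32 had 18.8 and 8.28 vpm in SLE.yaa mice, against 8.46 and 5.37 vpm in WT mice, which overlapped, and it was below the minimum for a test.

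All 6 genes that reached the minimum were called higher in CD4 T cells, where 15.8% of the 8415 genes tested were called higher (1333 genes) and 1032 were called lower. Their median log2 change was 2.04, against −0.015 over all genes tested. Without any scaling of the levels the calls were 2031 higher and 497 lower, and leaving out WT 1 or WT 2 left 1542 or 1399 calls in all. Markers of other cells differed as well. The 5 B cell markers summed to 848 and 1150 vpm in the CD4 T cells of SLE.yaa mice, against 1411 and 1278 vpm in WT mice, and the 5 plasma cell markers to 292 and 181 vpm, against 63.3 and 60.9 vpm. In CD4 T cells with a T cell receptor read and with Cd79a, Cd8a, Lyz2 and Ncr1 at 0, a restriction chosen after seeing the data, the log2 changes were 1.24 for Foxp3, 2.78 for Ikzf2, 2.29 for Il2rb, 2.44 for Nt5e and 1.89 for Izumo1r. That of Il2ra was 0.45 there, with an adjusted p of 0.072 (limma).

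As shares of cells, the difference lay between a minority and a majority for 3 of the genes. A cell is said to hold a gene when its value is above 0. Ikzf2 was held by 62.5% and 72.2% of CD4 T cells in SLE.yaa mice, against 11% and 10.3% in WT mice. Il2rb was held by 69.6% and 68.9%, against 15.3% and 13.7%, and Izumo1r by 77.8% and 74.2%, against 32.1% and 30.9%. Nt5e was held by 42.8% and 41.6% in SLE.yaa mice, against 5.4% and 7.31% in WT mice. Foxp3 was held by 22.2% and 20.9%, against 8.53% and 8.03%, and Il2ra by 13.4% and 14.9%, against 8.16% and 6.83%. Lrrc32 was held by 5.35% and 2.36%, against 1.76% and 1.80%. The SLE.yaa mice lay above the WT mice for all 7 genes, and an exact permutation test of 2 against 2 mice gave its smallest possible p, 0.333 (two-sided), for each.

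B cells, which should lack Foxp3, held these genes rarely at median UMI counts of 4733 and 4392 in SLE.yaa mice, against 3187 and 3355 in WT mice. Foxp3 was held by 0.536% and 0.296% of B cells in SLE.yaa mice, against 0.203% and 0.133% in WT mice, and Ikzf2 by 0.383% and 0.814%, against 0.232% and 0.212%. Nt5e, which some B cells express, was held by 1.88% and 1.81%, against 0.522% and 0.531%. All shares in CD4 T cells lay above those of the same gene in B cells. After each cell was thinned to 2500 depth-adjusted values, Foxp3 was held by 18.0% and 17.6% of CD4 T cells in SLE.yaa mice, against 7.03% and 6.59% in WT mice, and Ikzf2 by 50.9% and 61.8%, against 9.41% and 8.51%.

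**Figure D2:**
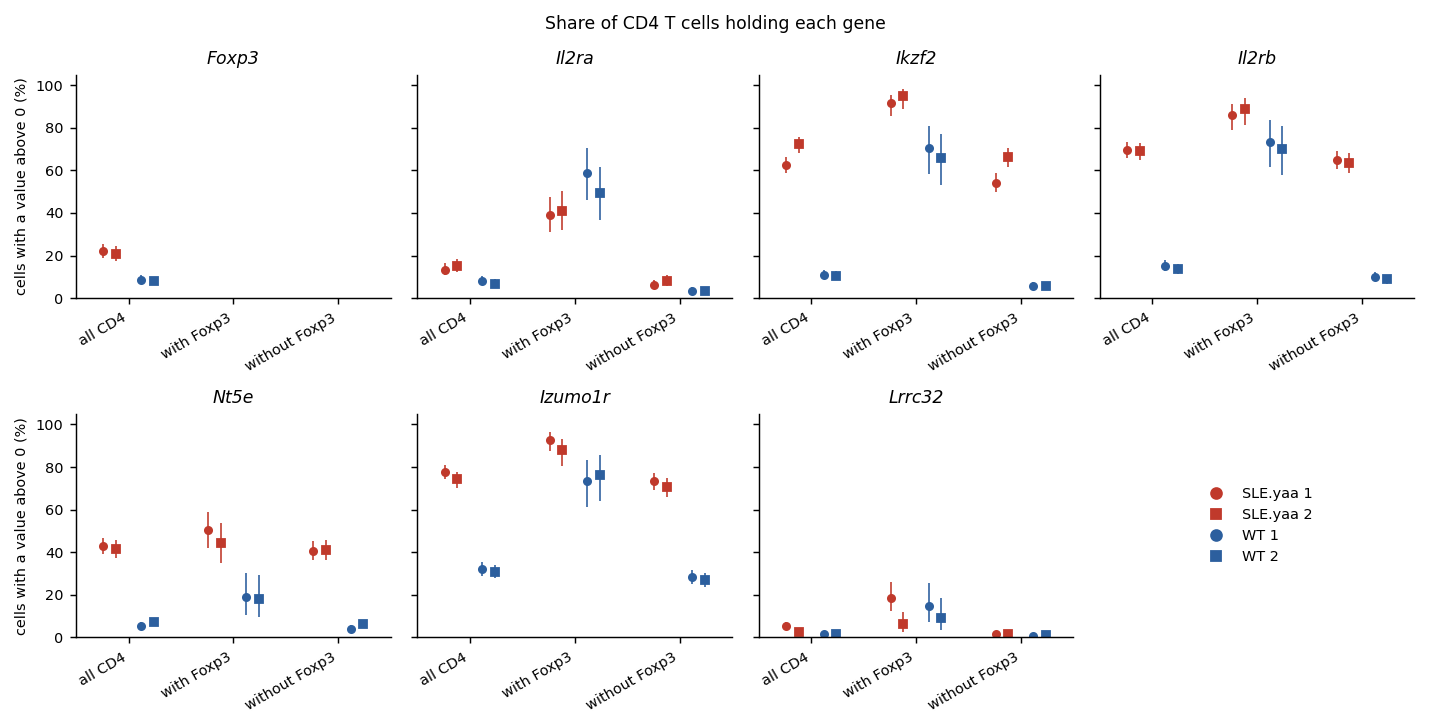
Percent of CD4 T cells that held each gene, among all CD4 T cells, those holding Foxp3 and those without it, with 1 point per mouse (SLE.yaa left of WT) and exact 95% Clopper-Pearson intervals, which cover counting error only. Among cells without Foxp3, Ikzf2 was held by 54.3% and 66.2% in SLE.yaa mice and by 5.49% and 5.48% in WT mice.

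CD8 T cells showed a smaller difference, called in 1 gene. Ikzf2 had 77.3 and 92.0 vpm in SLE.yaa mice, against 48.4 and 44.1 vpm in WT mice, a log2 change of 0.83 ± 0.17 (limma, adjusted p = 0.0258). It was held by 16.8% and 16.6% of CD8 T cells, against 11.8% and 10.7%. In CD8 T cells 2.49% of the 8281 genes tested were called higher (206 genes) and 54 lower, and without scaling the calls were 327 higher and 28 lower. The Ikzf2 call was lost without WT 1 (adjusted p = 0.138) or WT 2 (adjusted p = 0.404), and the count of calls was 1750, 554, 99 and 46 without SLE.yaa 1, SLE.yaa 2, WT 1 and WT 2.

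The other members in CD8 T cells did not pass as reported, though Il2rb passed in 3 of 12 alternatives and Izumo1r in 1 of 12. Il2rb had 323 and 395 vpm in SLE.yaa mice, against 256 and 306 vpm in WT mice, a log2 change of 0.44 ± 0.17 (limma, adjusted p = 0.223). Izumo1r had 58.2 and 38.3 vpm, against 41.6 and 21.0 vpm, with an overlap between the groups and a log2 change of 0.59 ± 0.24 (limma, adjusted p = 0.254). Nt5e had 38.3 and 27.5 vpm in SLE.yaa mice, against 32.1 and 39.8 vpm in WT mice, a log2 change of −0.03 ± 0.17 (limma, adjusted p = 0.954) whose sign turned without scaling (0.061). Foxp3, Il2ra and Lrrc32 were below the minimum, at no more than 9.01 vpm in any mouse. Plasma cell markers summed to 469 and 154 vpm in the CD8 T cells of SLE.yaa mice, against 45.6 and 42.4 vpm in WT mice, and NK cell markers to 1936 and 3057 vpm, against 994 and 957 vpm. Their part in the Ikzf2 and Il2rb values was not tested.

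NK cells were few, with 50 and 46 cells in SLE.yaa mice against 119 and 117 in WT mice. Il2rb had 1054 and 892 vpm in SLE.yaa mice, against 1216 and 1065 vpm in WT mice, a log2 change of −0.16 ± 0.20 (limma, adjusted p = 0.918). Ikzf2 had 92.6 and 64.9 vpm in SLE.yaa mice, against 11.4 and 9.42 vpm in WT mice, from 13 and 9 cells against 5 and 2 cells. The groups did not overlap, but the log2 change of 2.15 ± 0.35 missed the threshold (limma, adjusted p = 0.0543). In this comparison 0.0967% of 8275 genes tested were called higher (8 genes, with 499 at an unadjusted p under 0.05) and 0 lower. Scaled to the sum alone the calls were 12 higher and 4 lower, and without SLE.yaa 1 or SLE.yaa 2 there were 0 calls (limma, 1253 and 859 genes at an unadjusted p under 0.05). T cell markers moved with Ikzf2 in these cells. The 4 measured of 5 CD4 T cell markers summed to 379 and 346 vpm in the NK cells of SLE.yaa mice, against 40.9 and 73.0 vpm in WT mice, and Cd3e was held by 16% and 6.52%, against 0.840% and 1.71%. Nearly all of the sum was Cd3e, Cd3d and Cd3g, which do not tell CD4 from CD8 T cells. Cd4 itself had 8.82 and 0 vpm in SLE.yaa mice, against 0 and 4.71 vpm in WT mice, which overlapped. The part of these markers in the Ikzf2 values was not tested.

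In B cells none of the 7 genes reached 10 vpm in 2 mice over B, B-ISG and B-early as 1 set, so none was tested. By type, Il2ra in early B cells had 41.4 and 82.6 vpm in SLE.yaa mice, against 19.6 and 9.67 vpm in WT mice, without an overlap. In the cells annotated B, every member was at or below 5.8 vpm in every mouse.

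The change in CD4 T cells exceeded that in CD8 T cells for 5 of the 6 genes tested, with Foxp3 and Il2ra too low in CD8 T cells to be tested there. On the difference of the log2 levels within each mouse, the SLE.yaa change was larger in CD4 T cells by 2.39 for Nt5e (limma, adjusted p = 2.84e-10), by 1.84 for Ikzf2 (adjusted p = 3.15e-10), by 1.69 for Il2rb (adjusted p = 5.81e-10) and by 1.33 for Izumo1r (adjusted p = 1.96e-07). For Foxp3 it was larger by 0.90 (limma, adjusted p = 0.00207), and for Il2ra the difference of 0.63 did not pass (limma, adjusted p = 0.0636), though it passed in 6 of 12 alternatives. Of 8835 genes tested, 7.2% were called in this direction (636 genes) and 591 in the other. Scaled to the sum alone the calls were 952 and 380 in these directions, without scaling they were 767 and 358, and without WT 1 or WT 2 there were 632 or 648 calls in all. The Foxp3 call was lost with a pseudocount of 1 vpm (adjusted p = 0.652), among cells of 2000 to 5000 UMIs (adjusted p = 0.545) and without WT 2 (adjusted p = 0.0502, all by limma).

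The share of each gene's value that lay in CD4 T cells moved with these changes. For Il2rb it was 59.1% and 51.6% of all value in SLE.yaa spleens, against 20.5% and 17.7% in WT spleens. For Nt5e it was 78.0% and 71.9%, against 39.9% and 38.2%, and for Ikzf2 87.8% and 86.8%, against 65.5% and 64.6%. In WT spleens, therefore, most Il2rb and Nt5e value lay outside CD4 T cells, and in SLE.yaa spleens most lay inside them.

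CD4 T cells were next split by Foxp3. Foxp3 was held by 141 and 115 CD4 T cells in SLE.yaa mice, against 68 and 67 in WT mice, which left 494 and 435 cells without it, against 729 and 767. Median UMI counts were 4183 and 3770 in the Foxp3-holding cells of SLE.yaa mice, against 3640 and 3878 in those of WT mice. In the cells without Foxp3 they were 4317 and 3649, against 4066 and 4456. A value of 0 does not show that a cell lacked Foxp3 RNA, so the cells without Foxp3 can include cells that express it. Foxp3 chose these cells and was left out of the tests on them. Among the cells that held it, its level was 721 and 668 vpm in SLE.yaa mice, against 821 and 684 vpm in WT mice, and the groups overlapped. In these comparisons a gene needed 50 vpm in at least 2 of the means and 50 vpm was added before taking log2, except where the cells without Foxp3 stand alone, which kept 10 vpm.

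The other 6 genes were all higher in the cells that held Foxp3, in 4 of 4 mice. Over all mice, with the mouse as a block, the log2 difference was 2.12 ± 0.19 for Il2ra (limma, adjusted p = 0.000199), 1.96 ± 0.21 for Ikzf2 (adjusted p = 0.000683), 1.68 ± 0.24 for Il2rb (adjusted p = 0.00258) and 1.29 ± 0.18 for Izumo1r (adjusted p = 0.00231). Lrrc32 (0.76 ± 0.18) and Nt5e (0.56 ± 0.14) passed with an adjusted p of 0.0275 each (limma). Il2ra and Lrrc32 were under 50 vpm in the cells without Foxp3 of every mouse, so they entered this test only through Foxp3-holding cells. Their calls are therefore no independent support for a difference. The call of Nt5e was lost in 7 of 16 alternatives, among them those without SLE.yaa 1 (limma, adjusted p = 0.0849), WT 1 (0.0941) or WT 2 (0.128), and that of Lrrc32 in 3 of 14. Of 4006 genes tested, 5.34% were called higher (214 genes) and 212 lower. Scaled to the sum alone the calls were 296 higher and 139 lower, and without scaling 284 higher and 147 lower. With SLE.yaa 1, SLE.yaa 2, WT 1 or WT 2 left out there were 220, 254, 262 or 243 calls, and the genes' directions did not change.

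The gap was narrower in both SLE.yaa mice than in both WT mice for Il2ra, Ikzf2, Il2rb, Izumo1r and Nt5e. How many of all genes tested did the same was not counted, and the test of the difference is given below. For Il2ra the log2 difference was 1.48 and 1.78 in SLE.yaa mice, against 2.72 and 2.74 in WT mice. For Ikzf2 it was 1.5 and 1.32, against 2.65 and 2.68, and for Il2rb 1.02 and 1.05, against 2.52 and 2.46. For Izumo1r it was 0.95 and 0.78, against 2.08 and 1.72, and for Nt5e 0.52 and 0.10, against 1.02 and 0.82. For Lrrc32 it was 1.09 and 0.25 in SLE.yaa mice, against 1.34 and 0.46 in WT mice, and the groups overlapped.

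Among the cells that held Foxp3, SLE.yaa mice had more Ikzf2, Nt5e and Izumo1r and less Il2ra. Ikzf2 had 982 and 1289 vpm in SLE.yaa mice, against 501 and 505 vpm in WT mice, a log2 change of 1.09 ± 0.17 (limma, adjusted p = 0.000241). Nt5e had 223 and 164 vpm, against 80.8 and 71.6 vpm, a log2 change of 0.94 ± 0.18 (limma, adjusted p = 0.00142). Izumo1r had 1462 and 1123 vpm, against 849 and 589 vpm, a log2 change of 0.82 ± 0.19 (limma, adjusted p = 0.0071). None of these 3 genes overlapped between the groups.

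Il2ra went the other way in the same cells. It had 166 and 237 vpm in the Foxp3-holding cells of SLE.yaa mice, against 380 and 374 vpm in those of WT mice, a log2 change of −0.77 ± 0.18 (limma, adjusted p = 0.00846). It was held by 39.0% and 40.9% of these cells in SLE.yaa mice, against 58.8% and 49.3% in WT mice. Il2rb had 726 and 737 vpm, against 521 and 477 vpm, without an overlap, and its log2 change of 0.52 ± 0.16 missed the threshold (limma, adjusted p = 0.0543). Lrrc32 had 67.4 and 16.6 vpm in SLE.yaa mice, against 80.8 and 23.9 vpm in WT mice, a log2 change of −0.16 ± 0.26 (limma, adjusted p = 0.786) that lay on the other side of 0 without SLE.yaa 2 (0.24).

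In this comparison 6.48% of 3641 genes tested were called higher (236 genes) and 2.31% lower (84 genes). Without scaling the calls were 422 higher and 56 lower, and without SLE.yaa 1 or SLE.yaa 2 there were 184 or 68 calls in all. Without SLE.yaa 1 the adjusted p of Il2ra was 0.196 and that of Izumo1r 0.080, while Ikzf2 and Nt5e held with each mouse left out. B cell markers summed to 1526 and 1747 vpm in the Foxp3-holding cells of SLE.yaa mice, against 1160 and 1535 vpm in those of WT mice, and plasma cell markers to 248 and 234 vpm, against 109 and 91.5 vpm. In the cells with a receptor read and no marker of other cells there were 188 calls, and the log2 changes were 1.02 for Ikzf2, 1.04 for Nt5e, 0.88 for Izumo1r and −1.03 for Il2ra, each past the threshold (limma, adjusted p = 0.00225, 0.00567, 0.0189 and 0.0032).

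In the CD4 T cells without Foxp3, 5 of the genes were higher in SLE.yaa mice. Because 10 vpm was added to these levels and 50 vpm to those of Foxp3-holding cells, the printed changes of the 2 sets are not on 1 scale. Ikzf2 had 315 and 485 vpm in SLE.yaa mice, against 37.7 and 36.7 vpm in WT mice, a log2 change of 3.04 ± 0.19 (limma, adjusted p = 1.28e-07). Il2rb had 332 and 331 vpm, against 49.5 and 46.0 vpm, a log2 change of 2.52 ± 0.12 (limma, adjusted p = 3.21e-08). Nt5e had 140.3 and 150.1 vpm, against 14.4 and 18.9 vpm, a log2 change of 2.51 ± 0.14 (limma, adjusted p = 8.76e-08). Izumo1r had 730.4 and 635 vpm in SLE.yaa mice, against 163 and 144 vpm in WT mice, a log2 change of 2.04 ± 0.13 (limma, adjusted p = 1.40e-07).

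Il2ra had 27.3 and 33.7 vpm in these cells in SLE.yaa mice, against 15.1 and 13.4 vpm in WT mice, and its log2 change was 0.70 ± 0.16 (limma, adjusted p = 0.00583). Lrrc32 was at or below 6.07 vpm in every mouse and was not tested. So 5 of 5 tested genes were called higher, where 14.7% of the 8361 genes tested were called higher (1231 genes) and 1007 lower. Without scaling the calls were 1854 higher and 475 lower, and without WT 1 or WT 2 there were 1459 or 1318 calls in all. The B cell markers summed to 657 and 991 vpm in these cells in SLE.yaa mice, against 1434 and 1256 vpm in WT mice, and with a receptor read and no marker of other cells the 5 log2 changes were 0.97 for Il2ra and between 1.94 and 3.30 for the others.

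**Figure D3:**
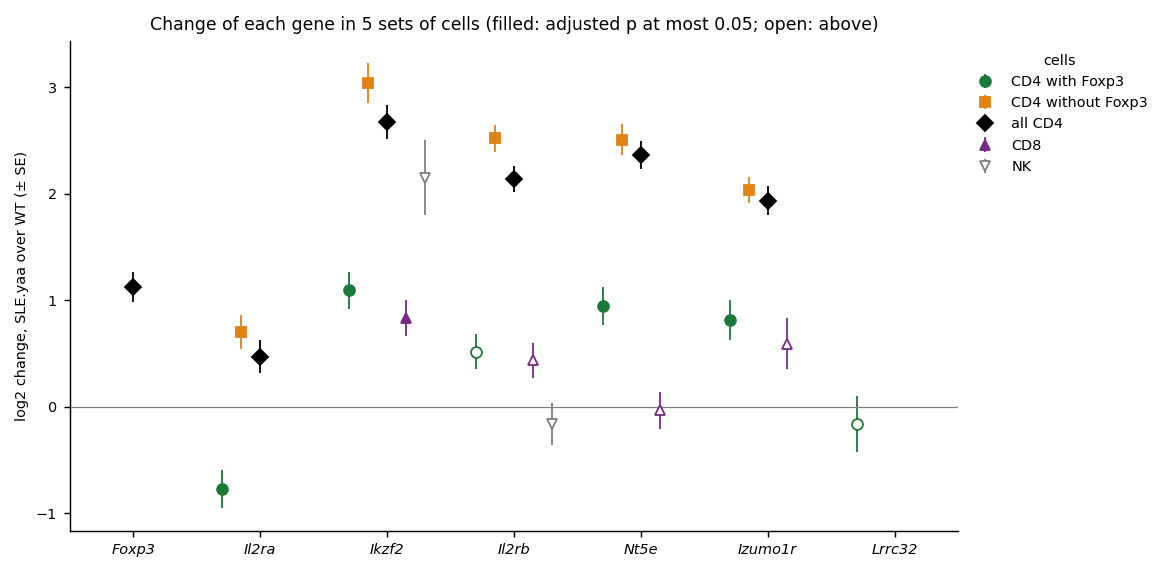
Log2 change of each gene, SLE.yaa over WT, with its SE (n = 2 mice a group), in CD4 T cells with Foxp3, without Foxp3 and in all, in CD8 T cells and in NK cells, with filled points where the adjusted p is at or below 0.05. Il2ra lies at −0.77 in the cells with Foxp3 (50 vpm added) and at 0.70 in those without it (10 vpm added).

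The test of the difference itself, with 50 vpm added in both sets, placed 4 genes apart. The log2 change in cells with Foxp3 was lower than in cells without it by 1.42 for Il2rb (difference −1.42, limma, adjusted p = 4.90e-06), by 1.23 for Ikzf2 (−1.23, adjusted p = 2.87e-05), by 1.08 for Il2ra (−1.08, adjusted p = 0.000794) and by 0.98 for Izumo1r (−0.98, adjusted p = 0.000493). Il2ra and Lrrc32 were under 50 vpm in the cells without Foxp3 of every mouse and entered this test through Foxp3-holding cells. The differences for Nt5e (−0.61, adjusted p = 0.0779) and Lrrc32 (−0.23, adjusted p = 0.786) did not pass (limma), though that of Nt5e passed in 4 of 15 alternatives. Of 4006 genes tested, 3.1% were called in this direction (124 genes) and 50 in the other, and without SLE.yaa 1, SLE.yaa 2 or WT 2 there were 95, 78 or 295 calls. These are differences of ratios. In vpm, the levels above show that Ikzf2 was further above WT in the cells with Foxp3 than in those without it, and on the mean of the ln values its difference was 0.10, on the other side of 0. Group means of Izumo1r too were further apart with Foxp3 (SLE.yaa 1292, WT 719 vpm) than without it (683 and 153 vpm). Those of Il2rb and Nt5e were not.

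In SLE.yaa mice most of the CD4 T cell value of Ikzf2, Il2rb, Nt5e and Izumo1r stood in cells without Foxp3, and most of that of Il2ra in cells with it. The same held in WT mice except for Ikzf2. Of the Ikzf2 value of CD4 T cells, 46.8% and 41.4% stood in Foxp3-holding cells in SLE.yaa mice, against 54.9% and 54.3% in WT mice. Of the Il2rb value it was 38.1% and 37.2%, against 49.0% and 47.2%, and of the Il2ra value 63.1% and 65.1%, against 69.6% and 70.7%. Of the Nt5e value it was 31.0% and 22.5%, against 33.9% and 24.7%, which overlapped, and of the Izumo1r value 36.1% and 32.0%, against 32.3% and 26.1%, which overlapped too. Of CD4 T cells that held Ikzf2, 32.5% and 27.5% also held Foxp3 in SLE.yaa mice, against 54.5% and 51.2% in WT mice. Of those that held Il2ra it was 64.7% and 57.3%, against 61.5% and 57.9%, which overlap. The name of regulatory T cell genes thus went with a Foxp3 value for Il2ra in both strains, while for Ikzf2 most of the SLE.yaa cells that held it had no Foxp3 value.

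The Ikzf2-holding cells without Foxp3 differed between the strains in what else they held. Nt5e was held by 50.4% and 46.5% of them in SLE.yaa mice, against 17.5% and 21.4% in WT mice. Il2rb was held by 75.7% and 69.8%, against 50% and 59.5%. Il2ra was held by 7.46% and 10.8%, against 32.5% and 31.0%, so that here too Il2ra was lower in SLE.yaa mice. Izumo1r was held by 83.6% and 78.8% of them in SLE.yaa mice, against 47.5% and 52.4% in WT mice. The WT values rest on 40 and 42 such cells.

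Counted per cell, CD4 T cells without Foxp3 mostly held several of the 6 other genes in SLE.yaa mice and none in WT mice. In the cells without Foxp3 the mean was 2.41 and 2.51 genes in SLE.yaa mice, against 0.517 and 0.519 genes in WT mice. None of the 6 was held by 9.72% and 7.82% of these cells in SLE.yaa mice, against 62.8% and 64.7% in WT mice, and 3 or more were held by 53.8% and 52.6%, against 3.16% and 3.52%. In the cells with Foxp3 the mean was 3.78 and 3.63 genes in SLE.yaa mice, against 3.10 and 2.88 genes in WT mice, and 4 or more were held by 61.7% and 59.1%, against 38.2% and 35.8%. These shares depend on depth, and the median UMI counts of the cells without Foxp3, given above, overlapped between the groups.

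**Figure D4:**
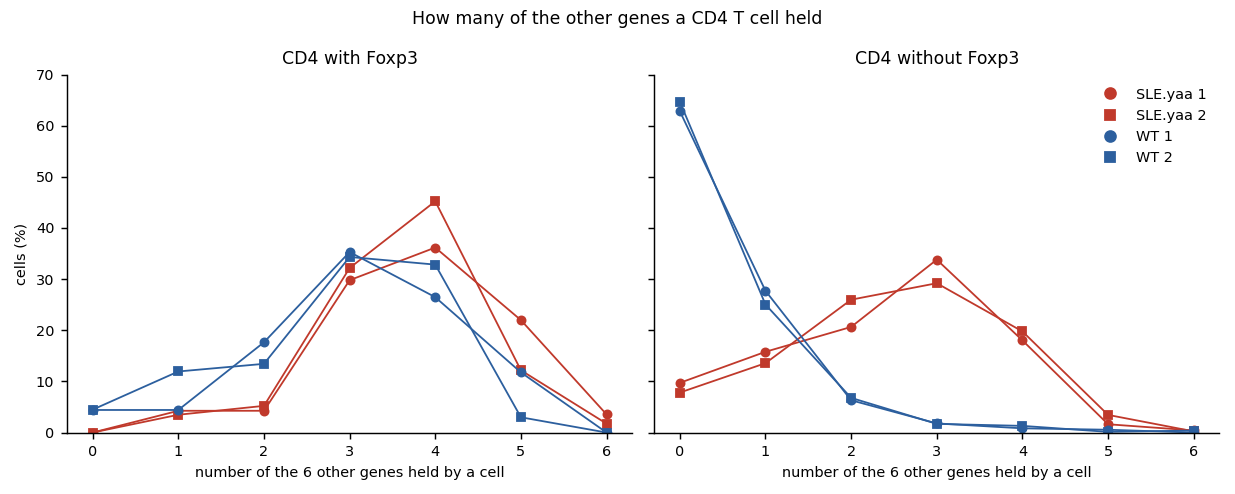
Percent of CD4 T cells that held 0 to 6 of the 6 genes other than Foxp3, in cells with Foxp3 and in cells without it, with 1 line per mouse. Without Foxp3, 62.8% and 64.7% of the cells of WT mice held none, against 9.72% and 7.82% in SLE.yaa mice.

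T cell receptors showed clones in both sets of cells. Among Foxp3-holding CD4 T cells with a receptor, 26.6% (exact 95% interval 19.1 to 35.3, of 124 cells) and 35.6% (25.6 to 46.6, of 87 cells) shared their clone with another cell of the receptor table in SLE.yaa 1 and 2. In WT mice it was 4.55% (0.555 to 15.5, of 44 cells) and 4.08% (0.498 to 14.0, of 49 cells). Among cells without Foxp3 it was 34.1% and 29.3% in SLE.yaa mice, against 4.07% and 1.07% in WT mice. The groups did not overlap in either set, and an exact permutation test of 2 against 2 mice gave its smallest possible p, 0.333 (two-sided).

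Some clones of SLE.yaa mice joined the 2 sets. Of clones with 2 or more CD4 T cells, SLE.yaa mice had 57 and 37, against 6 and 4 in WT mice. A Foxp3-holding cell was in 14 and 14 of them in SLE.yaa mice, against 1 and 1 in WT mice. All cells held Foxp3 in 10 and 10 of these, against 1 and 1, and the other 4 and 4 in SLE.yaa mice, against 0 and 0, also had cells without it. Among cells without Foxp3 that held Ikzf2, 44.8% and 30.6% were in clones in SLE.yaa mice, against 0 of 28 and 0 of 26 cells in WT mice (upper 95% limits of 12.3% and 13.2%). Among those that did not hold Ikzf2 it was 20.2% and 26.4%, against 4.29% and 1.12%.

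The other genes of the pathway were taken from lists chosen by function. The counts below stand against 15.8% of all tested genes called higher in CD4 T cells, where 1032 of 8415 were called lower. They also stand against 6.48% higher and 2.31% lower in Foxp3-holding cells and 14.7% higher in cells without Foxp3. Of 11 tested genes of interleukin-2 receptor signalling, 6 were called higher and 1 lower in CD4 T cells, with a median log2 change of 0.52. Jak3, the kinase of the common gamma chain, had 135 and 112 vpm in SLE.yaa mice, against 42.7 and 42.3 vpm in WT mice (1.30, limma, adjusted p = 3.4e-06). The STAT5-induced inhibitors Cish (0.75), Socs1 (0.61) and Socs2 (1.11) and the interleukin-15 receptor chain Il15ra (0.83) were also higher, and the survival gene Bcl2 (−0.44) was lower. In Foxp3-holding cells Jak3 was higher (0.83) and Bcl2 lower (−1.25), and the other 7 of 9 tested genes did not pass.

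Effector and checkpoint genes of regulatory T cells showed larger changes. Of 19 tested in CD4 T cells, 17 were called higher and 0 lower, with a median log2 change of 2.28. Lag3, an inhibitory receptor for MHC class II, had 516 and 499 vpm in SLE.yaa mice, against 4.06 and 4.10 vpm in WT mice (5.17, limma, adjusted p = 2.7e-12). The inhibitory receptor Tigit had 498 and 487 vpm, against 19.0 and 18.0 vpm (4.11, adjusted p = 1.6e-11 by limma). Pdcd1 (3.67), Tnfrsf4 (2.97) and Tnfrsf9 (2.88), which encode PD-1, OX40 and 4-1BB, were also higher. In Foxp3-holding cells 12 of 16 were called higher and 1 lower, with Lag3 at 2.98, Tigit at 1.90, Tnfrsf9 at 1.86, Pdcd1 at 1.62, Ccr8 at 1.46 and Klrg1 at −0.77. In cells without Foxp3 15 of 16 were called higher, with a median log2 change of 2.31, against −0.021 over all genes tested there.

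Genes listed for anergic and follicular helper CD4 T cells were higher as well. That list shares Nrp1 with the core genes of the regulatory lineage below, so it does not mark other CD4 T cells alone. All 13 tested in CD4 T cells were called higher, with a median log2 change of 2.37. Il21, the cytokine of follicular helper T cells, had 116 and 82.8 vpm in SLE.yaa mice and was listed at 0 in both WT mice, and its fitted change lies above that median. Maf (3.31), Icos (2.65) and Nrp1 (2.44) were higher. In cells without Foxp3 13 of 13 were called higher (median 2.59), and in Foxp3-holding cells 5 of 7, with Maf at 1.09, Icos at 1.13 and Nrp1 at 0.69. Tested against each other within mice, the changes were smaller in Foxp3-holding cells for 7 of 10 of these genes, with Maf at −1.69, Cd200 at −1.64 and Il21 at −1.61 (limma, adjusted p at most 5.97e-05). Over all 4006 genes in that test, 3.1% were called in this direction.

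Core genes of the lineage split in direction. In CD4 T cells 8 of 13 were called higher and 2 lower. Itgb8, an integrin chain that activates TGF-beta, had 65.8 and 72.4 vpm in SLE.yaa mice, against 4.4 and 3.79 vpm in WT mice (2.46, limma, adjusted p = 1.7e-08). Capg (2.37), the AP-1 factor Batf (2.31) and Nrp1 (2.44) were also higher, while Bach2 (−1.61) and the chromatin organiser Satb1 (−2.66) were lower. Batf (1.16), Capg (1.10), Itgb8 (1.14), Bach2 (−0.99) and Satb1 (−1.26) kept these signs in Foxp3-holding cells, each past the threshold.

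Among the Ikaros relatives of Ikzf2, Ikzf4 (Eos) was higher in CD4 T cells (1.20) and Ikzf1 (Ikaros) lower (−0.72), and Ikzf3 (0.04) and Ikzf5 (−0.18) did not pass. In Foxp3-holding cells Ikzf4 was higher (0.61) and Ikzf3 (Aiolos) lower (−0.76). Of 10 tested genes that handle adenosine and TGF-beta, 4 were higher and 3 lower in CD4 T cells. Entpd1 (CD39), which makes the AMP that Nt5e converts, had 29.6 and 24.9 vpm in SLE.yaa mice, against 3.72 and 2.84 vpm in WT mice (1.46, limma, adjusted p = 3.2e-06). The adenosine receptor Adora2a (0.82) and Itgav (1.34), the integrin partner of Itgb8, were higher. The TGF-beta receptor chain Tgfbr2 (−0.75), Nrros (−0.85) and Dpp4 (−0.45), which binds adenosine deaminase in humans, were lower.

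Genes of naive T cells were lower. Of 10 tested in CD4 T cells, 0 were called higher and 9 lower, with a median log2 change of −1.76, among them Lef1 (−2.13) and Ccr7 (−1.86). In Foxp3-holding cells 7 of 9 were lower, with Igfbp4 at −1.46, Lef1 at −1.27 and Ccr7 at −1.21.

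The genes most like Foxp3 were those with the largest difference between CD4 T cells with and without Foxp3 in the least favourable of the 4 mice. Il2ra and Ikzf2 were the only other members among the 10. Tnfrsf9 led, with log2 differences of 2.38 and 2.45 in SLE.yaa mice and 1.77 and 1.78 in WT mice. It had 652 and 666 vpm in the Foxp3-holding cells of SLE.yaa mice, against 146 and 147 vpm in those of WT mice. The others were the costimulatory receptor Tnfrsf18 (GITR, 1.44), the TNF receptor Tnfrsf1b (1.44), the tetraspanin Cd81 (1.31), the kinase Pim1 (1.24), Bmyc (1.23), Rln3 (1.71) and Pglyrp1 (1.14). The 5 genes with the steadiest difference in the other direction were Tcf7 (−1.59), Igfbp4 (−2.08), Dapl1 (−1.39), Themis (−1.03) and Gm20400 (−1.21), of which Tcf7 encodes TCF-1, a factor of naive and memory T cells.

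**Figure D5:**
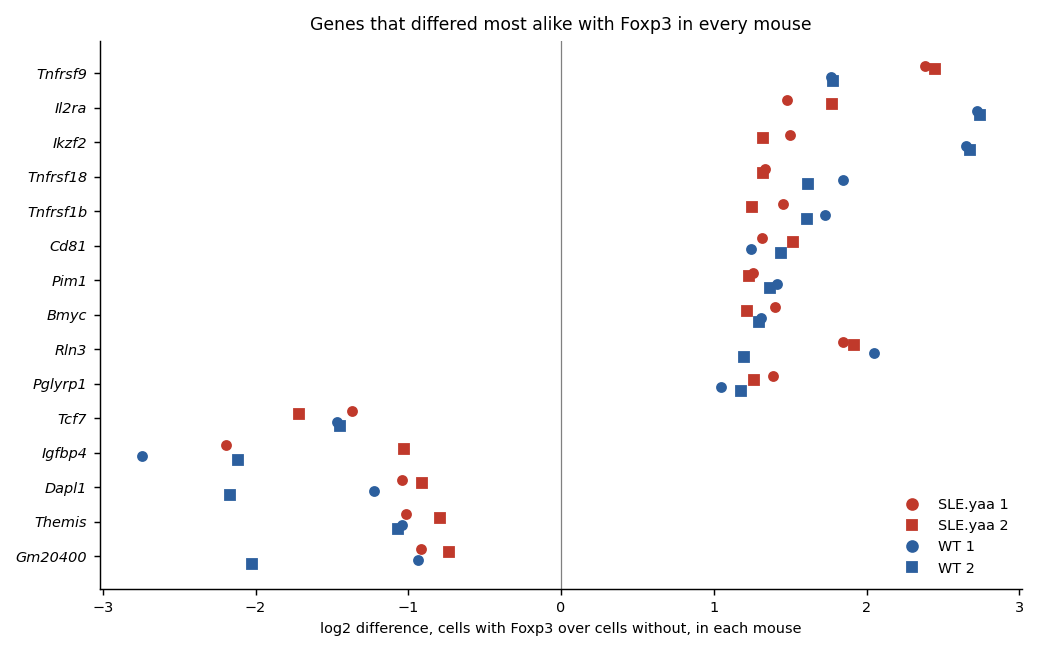
Log2 difference between CD4 T cells with and without Foxp3 for the 10 genes most like Foxp3 and the 5 most unlike it, with 1 point per mouse. Tnfrsf9 lies at 2.38 and 2.45 in SLE.yaa mice and at 1.77 and 1.78 in WT mice, while Il2ra lies at 1.48 and 1.78 in SLE.yaa mice and at 2.72 and 2.74 in WT mice.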

How the data were processed

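Spleen cells enriched for CD45 were captured in droplets, with expression and receptor libraries for each of 4 male mice. The build GRCm38 (mm10) and the tools Cell Ranger 5.0.0 and Seurat 4.0.0 are listed in the submitters' processing notes. The expression table the authors deposited gives, per gene and cell, the natural log (ln) of a whole number plus 1. These numbers were whole within 1.64e-11 and depth-adjusted, so they are not UMI counts. The sources used here do not say how the authors adjusted them. Summed per cell they ran from 2663 to 6382, while the deposited UMI counts ran from 1002 to 26847. The deposited cell table also gives the percent of mitochondrial UMIs, the mouse and the cell type, and the authors' receptor tables give clones and an age with no unit. The deposited T cell receptor table covered 4001 cells, 3281 of them in the expression table. A total of 15 rows without a gene name, with 0.0440% of the values, were left out, and doublets were not called.

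Values were averaged over the cells of a type per mouse, scaled to a sum of 1000000 and, for tests only, by TMM factors (edgeR 4.0.16 in R 4.3.3), so printed levels carry no TMM factor. The limma 3.58.1 test covered genes that reached 10 vpm in 2 or more mice (trend, robust variance off, two-sided, on log2(vpm + 10)). For comparisons with Foxp3-holding cells both numbers were 50. Adding them makes the changes of low genes smaller. Interactions were tested on differences of log2 values within a mouse. Shares have exact Clopper-Pearson 95% intervals, which cover counting error only. Read numbers per value are unknown, and UMI counts per cell are the only depth. The tests were tested on simulated data. Other steps used Python 3.11.15, numpy 2.4.6, scipy 1.17.1, pandas 2.3.3 and matplotlib 3.10.9.

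The 7 genes, the lists and the tests were chosen with earlier results of these data known. Of each list, at most the 5 genes with the smallest adjusted p in each direction are named. The genes most like Foxp3 are the 10 with the largest smallest-of-4-mice difference, and the 5 with the most negative largest-of-4. Replicate numbers only follow the order in which mice are listed and pair none. Cells with and without Foxp3 come from the same mouse, so the mouse was a block there. The alternatives were other scalings, pseudocounts, minimums, means of ln values, robust variance, a UMI window, other Foxp3 thresholds, and each mouse left out. The restriction to cells with a receptor read and no marker of other cells was added after seeing the data.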

Additional observations from a re-analysis of the deposited data

Results flagged for a closer look

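The change between SLE.yaa and WT mice differed between CD4 and CD8 T cells, by the test of the difference within mice (limma), for 5 of the 7 genes. The log2 change was larger in CD4 than in CD8 T cells by 0.90 for Foxp3, 1.84 for Ikzf2, 1.69 for Il2rb, 2.39 for Nt5e and 1.33 for Izumo1r. The Foxp3 call was lost in 3 of 12 alternatives (limma, highest adjusted p = 0.652).

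It also differed between CD4 T cells with and without Foxp3 for 4 genes by the same kind of test. The differences of the log2 changes were −1.08 for Il2ra, −1.23 for Ikzf2, −1.42 for Il2rb and −0.98 for Izumo1r, lower in the cells with Foxp3. None of the 4 passed without a minimum on the levels (limma). Of these genes only Il2ra was called lower in SLE.yaa mice in 1 set of cells and higher in the other.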

How the results depend on the processing

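The increases of Foxp3, Ikzf2, Il2rb, Nt5e and Izumo1r in CD4 T cells, and of the last 4 of these in CD4 T cells without Foxp3, kept their sign and their side of the threshold under every alternative run. So did those of Ikzf2 and Nt5e in Foxp3-holding cells. The alternatives of the 7 genes' values left 487 on the same side, 24 passing where the reported value did not, 41 failing where it passed, and 7 with the other sign. Those of other named genes left 2685 on the same side, 295 failing and 5 with the other sign. With no minimum on the levels, Il2ra in CD4 T cells (adjusted p = 0.075, 0.00655 to 0.304 over its alternatives) and Ikzf2 in CD8 T cells (adjusted p = 0.109) no longer passed (limma). Nor did Il2ra (adjusted p = 0.052) and Izumo1r (adjusted p = 0.063) in Foxp3-holding cells under that setting (limma), which tests more genes. The 24 that passed where the reported value did not were Il2rb in Foxp3-holding cells (5 of 15 alternatives) and in CD8 T cells (3 of 12), Ikzf2 in NK cells (5 of 12), Izumo1r in CD8 T cells (1 of 12), the CD4 against CD8 difference of Il2ra (6 of 12) and the difference by Foxp3 of Nt5e (4 of 15). For cells with against without Foxp3, calls were lost in 7 alternatives for Nt5e, 3 each for Il2rb, Izumo1r and Lrrc32, 2 for Ikzf2 and 0 for Il2ra (limma).

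Counts of calls moved under several settings. Without a minimum they were 19 in CD8 T cells, 0 in NK cells (limma, 716 at an unadjusted p under 0.05), 116 in B cells (279 as reported), 74 for cells with against without Foxp3, 173 in Foxp3-holding cells and 0 for the difference by Foxp3 (limma, 1502 at an unadjusted p under 0.05). Among cells of 2000 to 5000 UMIs they were 445 in CD8 T cells, 0 in NK cells (limma, 544 at an unadjusted p under 0.05), 160 in B cells, 679 for CD4 against CD8 T cells, 261 for cells with against without Foxp3 and 204 in Foxp3-holding cells. On means of ln values they were 4 in NK cells, 767 in B cells and 528 in Foxp3-holding cells. Without scaling they were 14 in NK cells and 1062 in B cells (1027 higher and 35 lower, against 208 and 71 with TMM). NK cells had 16 scaled to the sum alone and 3 with a pseudocount of 1 vpm. Foxp3-holding cells had 184 when a Foxp3 value of 2 or more was asked for, and 188 with a receptor read and no marker of other cells. With 1 mouse left out, they were 1399 to 2030 in CD4, 46 to 1750 in CD8, 0 to 11 in NK and 135 to 729 in B cells. They were 632 to 1281 for CD4 against CD8 T cells, 220 to 262 for cells with against without Foxp3, 68 to 356 in Foxp3-holding cells, 1318 to 2588 in cells without Foxp3 and 78 to 295 for the difference by Foxp3. A lone mouse was taken to vary like the other group.

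Without the mouse as a replicate block, cells with against without Foxp3 gave 11 calls, and of the 6 genes only Il2ra passed. Il2ra had entered that test only through Foxp3-holding cells. Both sets come from the same mouse, which is where that pairing comes from. For SLE.yaa against WT no paired analysis was possible because the replicate numbers only follow the order in which the mice are listed.

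Signs turned in few cases. The log2 change of Nt5e in CD8 T cells (−0.03) was 0.061 without scaling, 0.0095 on means of ln values and −0.16 to 0.10 with 1 mouse left out. Lrrc32 ran from −0.59 to 0.24 in Foxp3-holding cells and from −0.68 to 0.17 for the difference by Foxp3 with 1 mouse left out. On means of ln values that difference was 0.064 for Capg, 0.10 for Ikzf2 and 0.15 for Tigit. For Tnfrsf9 (0.64) it was −1.08 with a pseudocount of 1 vpm and −0.29 with 10 vpm. Swap70 in cells without Foxp3 (−0.65) was 0.19 with a receptor read and no marker of other cells. The causes of these shifts were not tested. With no scaling the median gene moved by 0.16 (log2) in CD4 T cells and in both Foxp3 sets and by 0.20 in B cells. Scaling to the sum alone gave a median of −0.10 for CD8 T cells, −0.11 for NK cells and 0.12 for CD4 against CD8 T cells. The 50 and 46 NK cells of SLE.yaa mice and the 67 to 141 Foxp3-holding cells per mouse limit what those comparisons can show.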

Other observations

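Among genes outside the 7 and in CD4 T cells, the largest called increases with a value above 0 in WT mice were those of Lag3 and Tigit, given above. The BMP antagonist Sostdc1 had 426 and 343 vpm in the CD4 T cells of SLE.yaa mice and was listed at 0 in both WT mice. The largest called decreases were those of Ly6c1 (log2 change −3.16), Igfbp4 (−2.94) and Satb1 (−2.66). In Foxp3-holding cells, Lag3 had 586 and 508 vpm in SLE.yaa mice, against 24.3 and 27.8 vpm in WT mice. There it was followed by Il1r2, the decoy receptor of interleukin-1 (2.16), and by Pglyrp1 (2.01). The largest called decreases in those cells were Ly6c1 (−1.68), Nsg2 (−1.59) and Gm2682 (−1.54).

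Between the cells with and without Foxp3, the change differed most towards the Foxp3-holding cells for Neb (1.29), Itm2a (1.21) and Ass1 (1.16). It differed most towards the cells without Foxp3 for Itgb1 (−2.43), Sostdc1 (−2.41) and S100a4 (−2.34).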
